A study of Sus scrofa with 8 samples.

Results

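The genes described here are *DPP4* and its relatives among the dipeptidyl peptidases, *FAP*, *DPP8*, *DPP9*, *DPP7*, *DPP6* and *DPP3*, in heart RNA of Tibetan and Yorkshire pigs. They were chosen by gene name, and *DPP4* was put at their head because its FPKM differed between the breeds. Of the 7 genes, 6 are named in the deposited table of 18975 genes. *DPP3* is not named there and was found by its Ensembl ID. The 5 genes *DPP4*, *FAP*, *DPP8*, *DPP9* and *DPP7* reached 1 FPKM in at least 2 libraries and were tested among 11913 genes, while *DPP6* and *DPP3* did not reach it. FPKM are fragments per kilobase of exon and 1000000 mapped fragments, so gene length is allowed for. Comparisons between genes are still approximate, since the reads behind 1 FPKM changed between libraries by a different amount for each gene, as given below.

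The study asked how the hearts of both breeds differ where they are raised high or low. Tibetan pigs came from the highland of Linzhi in Tibet (TH) or from lowland Beijing (TL), and Yorkshire pigs were raised at the same highland (YH) and lowland (YL) sites. All pigs were males of 6 months, none carried a transgene, and each group had 2 libraries made from RNA pooled over 4 pigs. A library is therefore a mean of 4 hearts, the spread given below is that between 2 pools, and site and altitude cannot be told apart.

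DPP4, also known as CD26, is a serine protease of the cell surface that removes dipeptides behind a proline or alanine from chemokines and peptide hormones. It is found on T cells, on endothelial cells and on the brush border of the kidney tubule, and it is shed into plasma. FAP is its closest relative and is known from activated fibroblasts, DPP8 and DPP9 are cytosolic enzymes, DPP7 works in vesicles and lysosomes, DPP6 has no enzyme activity and serves potassium channels, and DPP3 is an unrelated zinc peptidase of the cytosol.

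The libraries held 15687000 to 26723000 reads on genes. Library YL2 stood apart. Its mean Spearman correlation with the other libraries across genes was 0.824, against 0.869 in TH1 and 0.904 to 0.917 in the rest. The deposited FPKM of all genes summed to 8559103 in TH1 and to 1563940 in YL2. In the rest the sums were 2032070 to 4017845, so the FPKM scale was uneven between libraries. The 15 kidney marker genes found in the table summed to 6863 FPKM in YL2 and to 0.832 to 3.35 FPKM in the other 7 libraries. *SLC5A2*, the glucose transporter of the proximal tubule, alone reached 4023 FPKM in YL2. Cardiomyocyte markers were still abundant there, with a sum of 13789 FPKM against 25104 to 42514 FPKM elsewhere. Because *DPP4* and several other peptidases are also kidney genes, the values that rest most on YL2 are also given without it. *NPPB*, the gene of the heart hormone BNP, set the TH libraries apart, with 4963 and 3264 FPKM against 7.75 to 278 FPKM in the other 6.

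*DPP4* (ENSSSCG00000015894, chr15:76152547-76235571 in Sscrofa10.2) had the highest FPKM of these genes in 6 of the 8 libraries. Its level was 11.3 and 9.01 FPKM in TH1 and TH2, 16.5 and 20.3 FPKM in TL1 and TL2, 41.9 and 48.9 FPKM in YH1 and YH2, and 52.3 and 68.4 FPKM in YL1 and YL2. These values rest on 480 to 6681 reads per library. Read numbers here are estimates, made by dividing the deposited signal by its step, and were not established as whole reads in every library. Every Yorkshire library lay above every Tibetan one, and none of the 4 groups overlapped with another. The mean was 10.17 ± 1.65 FPKM in TH, 18.4 ± 2.71 in TL, 45.4 ± 4.95 in YH and 60.4 ± 11.4 in YL (SD, n = 2 pools).

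**Figure D1:**
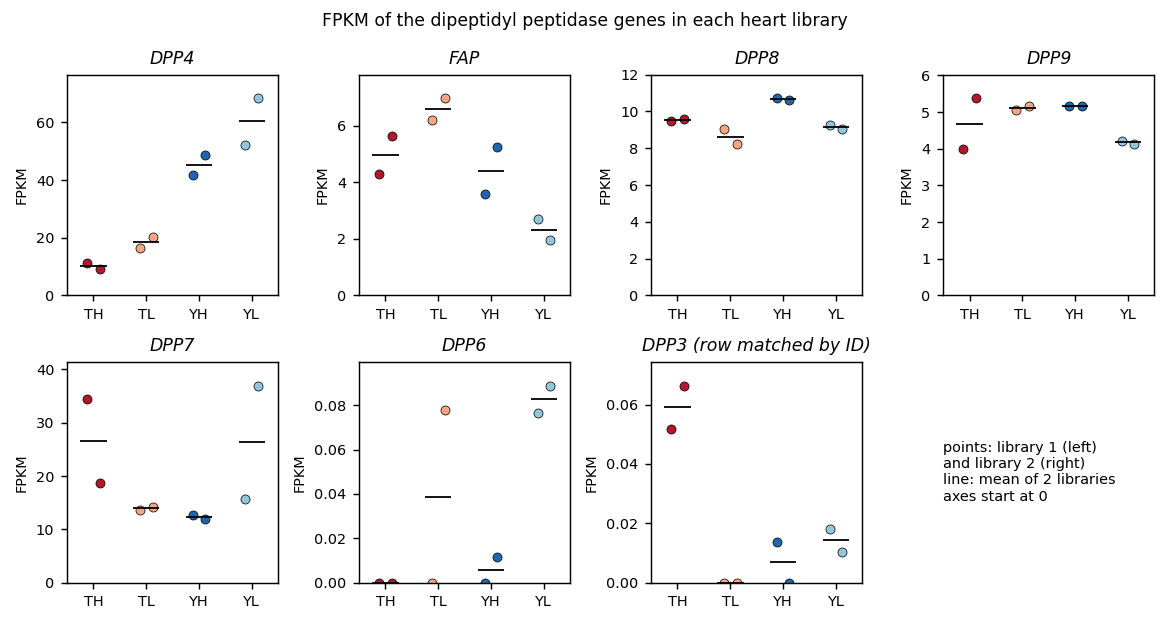
FPKM (vertical axis, from 0, with a scale of its own for each gene) of the 7 genes in the TH, TL, YH and YL groups; points are libraries and lines are means of 2. *DPP4* runs from 9.01 to 68.4 FPKM without overlap between groups, whereas *DPP8* stays between 8.22 and 10.7 FPKM, and *DPP7* is high in TH1 and YL2.

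The plot of FPKM by library shows the breed step for which *DPP4* was chosen. The YH mean was 4.46 times the TH mean and the YL mean was 3.28 times the TL mean. Over both altitudes the Yorkshire mean of 52.9 ± 11.2 FPKM (SD, n = 4) was 3.70 times the Tibetan mean of 14.3 ± 5.08 FPKM (SD, n = 4), or 3.34 times without YL2. On the log2(FPKM + 1) scale the Tibetan to Yorkshire difference was -2.06 at the highland and -1.66 at the lowland, the latter -1.47 without YL2. No test is given for these differences, since the breed difference is what chose the gene. In the same way, 8.03% of all tested genes had no overlap between the 4 Tibetan and the 4 Yorkshire libraries, and *DPP4* is one of them by choice.

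The altitude differences of *DPP4* did not enter that choice and were tested. *DPP4* was lower in TH than in TL by 0.80 on the log2(FPKM + 1) scale (fold change -0.80, SE 0.24, 95% interval -1.37 to -0.22, limma adjusted p = 0.313). It was lower in YH than in YL by a smaller amount (-0.40, SE 0.24, 95% interval -0.97 to 0.18, limma adjusted p = 0.784), and this became -0.21 without YL2. The mean of both differences was -0.60 (SE 0.17, limma adjusted p = 0.511, 0.0742 to 1 over the alternatives). The lowest of these came without YL1, where YL is YL2 alone, the mean difference was -0.69 and 166 genes were called between the altitudes. By limma the altitude differences of *DPP4* did not pass the test, although the libraries of the paired groups did not overlap. With 2 against 2 libraries a permutation test cannot go below p = 0.333. With the breeds joined, the 4 highland and the 4 lowland libraries overlapped. The exact two-sided permutation test, which did not hold breed fixed, then gave p = 0.486. The breed difference was larger in size at the highland than at the lowland by 0.40 on the log2 scale, which is given without a test. This gap was 0.21 to 0.59 in size with a library left out, the ends without YL1 and without YL2, 0.15 on the read signal and 0.75 with equal FPKM sums, so its size is not firm.

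The order TH, TL, YH, YL from low to high without any overlap was found in 29 of the 11913 tested genes (0.243%), and 13 genes (0.109%) also spanned at least 2 log2 units as *DPP4* does. The breed step that chose *DPP4* sets most of this order and range, so nothing is read from these shares. The upper end of the order rests on the scale used. As reads per 1000000 reads on genes, *DPP4* stood at 29.8 and 30.6 in the TH libraries and at 59.4 and 64.9 in the TL libraries. It stood at 135 and 149 in the YH libraries, at 143 in YL1 and at 311 in YL2, so that YL1 lay between the YH libraries and only YL2 above them. The Tibetan libraries were below the Yorkshire libraries on this scale as well. After median-ratio scaling the order held, both on the read signal (2713 and 2660 in YH, 3297 and 5632 in YL) and in FPKM (43.2 and 49.4 in YH, 50.8 and 80.6 in YL).

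**Figure D2:**
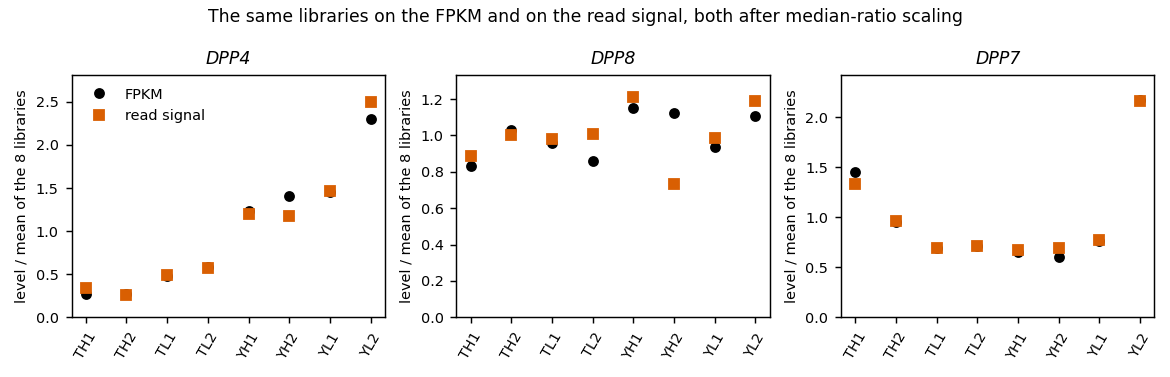
Level of *DPP4*, *DPP8* and *DPP7* in each library (horizontal axis) divided by the gene's mean over the 8 libraries (vertical axis, from 0), for FPKM (circles) and for the read signal (squares), both after median-ratio scaling. *DPP4* keeps its breed step on both scales, whereas *DPP8* in YH2 is among the highest values on FPKM and the lowest on the read signal.

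The plot of both scales shows where the choice of unit matters. For *DPP8*, *DPP9* and *DPP7* the reads behind 1 FPKM, taken relative to *DPP4*, changed 1.52-fold, 1.85-fold and 1.84-fold between libraries, while for *FAP* they changed 1.10-fold. In the read signal after median-ratio scaling, *DPP8* stood at 630 in YH2 and at 1039 in YH1, whereas its FPKM in these libraries were 10.6 and 10.7. The sign of the altitude difference of *DPP8* turned between both scales.

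The cell types known to carry DPP4 were followed through their marker genes. In bulk RNA, fewer cells of a type and less RNA per cell cannot be told apart. The T and natural killer cell markers found in the table (15 of 16 genes) summed to 10.8 and 9.88 FPKM in TH, 15.3 and 21.1 FPKM in TL, 46.3 and 51.1 FPKM in YH, and 20.6 and 21.0 FPKM in YL. This list was lowest in TH, as *DPP4* was, but it was highest in YH and not in YL. All 12 tested rows were lower in TH than in YH at an unadjusted p under 0.05 by limma, a result that 8.47% of all tested genes gave in that direction, and their median difference was -1.47 against -0.03 for all genes. None of the 12 passed the adjusted threshold of 0.01, and the count was again 12 without YL2, when 22.7% of all genes had such a p in either direction.

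*CD3E*, a chain of the T cell receptor complex, had 1.69 and 0.858 FPKM in TH, 6.60 and 9.08 FPKM in YH, and 2.13 and 2.84 FPKM in YL. *CD2*, an adhesion molecule of T cells, had 0.491 and 0.276 FPKM in TH against 4.18 and 4.82 FPKM in YH (log2 difference -1.99, limma adjusted p = 0.0392). From YH to YL the list and *DPP4* went in opposite directions: 11 of the 12 rows were higher in YH than in YL at an unadjusted p under 0.05, against 4.39% of all genes, while *DPP4* was not higher in YH. Without YL2 the count was 10, against 5.45% of all genes in either direction. In TL and YL the summed T cell markers were 15.3 to 21.1 FPKM, and *DPP4* was 3.28 times higher in YL. The part of T cells in the *DPP4* levels was not tested.

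**Figure D3:**
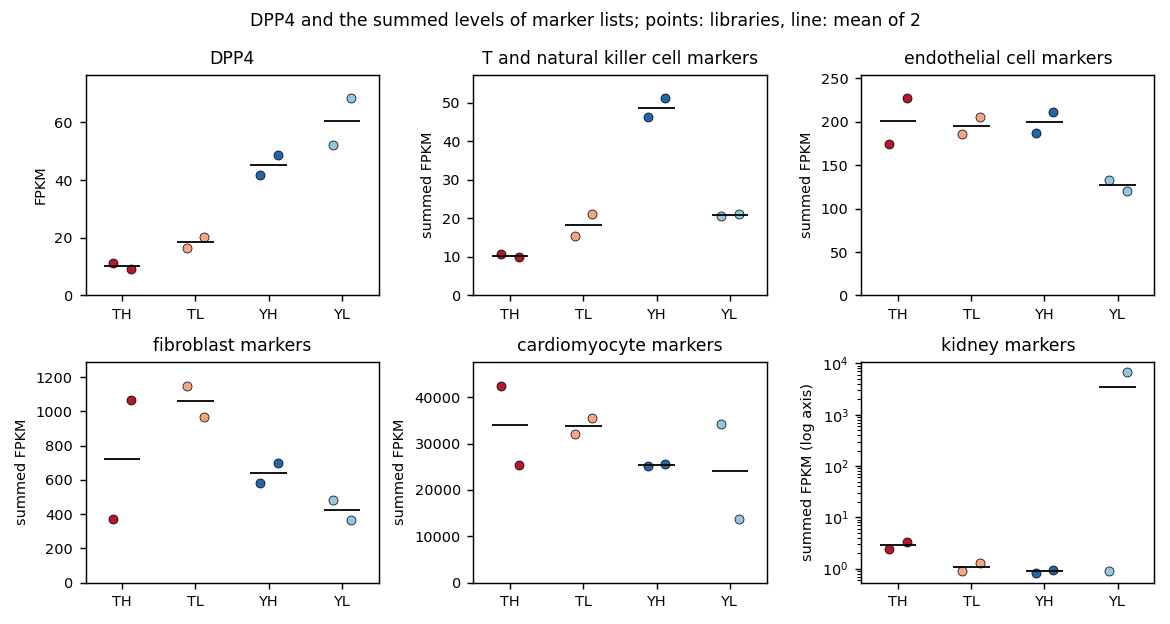
FPKM of *DPP4* and summed FPKM of 5 marker lists (vertical axes, linear and from 0 except the kidney list, which has a log axis) in the TH, TL, YH and YL groups; points are libraries and lines are means of 2. The T and natural killer cell list peaks in YH at 46.3 and 51.1 FPKM, and the kidney list is at 6863 FPKM in YL2 alone.

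The plot of marker lists also places *DPP4* beside other cells of the heart. Endothelial markers (10 of 12 genes found) summed to 174 and 227 FPKM in TH, 186 and 205 FPKM in TL, 188 and 211 FPKM in YH, and 133 and 121 FPKM in YL. The group with the highest *DPP4* thus had the lowest endothelial sum. Of the 10 endothelial genes, 4 were higher in TL than in YL at an unadjusted p under 0.05, against 5.90% of all genes in that direction, and 3 were so without YL2, against 9.72% of all genes in either direction. *CLDN5*, a tight junction gene of endothelium, had 23.6 and 27.5 FPKM in TL and 9.18 and 11.4 FPKM in YL. Mesothelial and epithelial markers (7 of 10 found) summed to 60.1 FPKM in YL2 and to at most 7.24 FPKM elsewhere. The part of these cells in the *DPP4* levels was not tested.

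Library YL2 gave the highest *DPP4*, 1.31 times that of YL1 in FPKM. Other peptidases of the cell surface were far higher in it. *ENPEP*, which cleaves angiotensin II, had 681 FPKM in YL2 and 6.77 to 15.7 FPKM elsewhere. *MME*, or neprilysin, had 160 FPKM in YL2 against 0.447 to 5.10 FPKM, and *ACE* had 60.4 against 3.38 to 10.4 FPKM. Over the 11 genes of this list found in the table, the sum was 1056 FPKM in YL2 and 39.3 to 73.6 FPKM in the other libraries. *ECE1* and *CPD*, the other members of its 5 most abundant, had 17.9 and 14.1 FPKM in YL2 and at most 24.4 and 9.93 FPKM elsewhere. None of the 9 tested genes was called. In TH to YH 1 of the 9 was lower at an unadjusted p under 0.05 and none higher, against 16.2% of all genes in either direction. Without YL2 these counts were 4 and 1, and 22.7% of all genes then had such a p. *DPP4* was at 52.3 FPKM in YL1, where the kidney list summed to 0.896 FPKM. The part of kidney RNA in the *DPP4* level of YL2 was not tested.

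Genes that act with DPP4 were sorted into ligands, receptors and binding partners. Of 19 substrates of DPP4 by name, 12 were found and 5 were tested, and none was called in any comparison. *CXCL12*, the chemokine that guides stem cells to injured heart muscle, had 5.83 and 16.04 FPKM in TH, 39.7 and 37.5 FPKM in TL, 32.9 and 26.9 FPKM in YH, and 15.1 and 33.0 FPKM in YL. It was lowest in TH1 and TL was highest, and the TH to TL difference was -1.87 on the log2 scale (SE 0.50, limma adjusted p = 0.268). *CXCL9*, an attractant of T cells, had 3.39 and 1.28 FPKM in TH, 3.96 and 6.51 FPKM in TL, 16.6 and 9.92 FPKM in YH, and 2.38 and 1.03 FPKM in YL. *CCL5* had 13.6 to 29.3 FPKM in the Tibetan libraries, 40.1 and 46.4 FPKM in YH, and 24.4 and 26.1 FPKM in YL. *CXCL10* was uneven within groups, with 366 FPKM in YL1 and 8.42 FPKM in YL2.

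The 5 substrate genes had a median TH to YH difference of -1.51, with 3 lower and 1 higher at an unadjusted p under 0.05, against 16.2% of all genes in either direction. Without YL2, 4 were lower and 1 higher, against 22.7% of all genes. The gene that was higher in TH is *NPPB*, with a difference of 6.18 (SE 1.31, limma adjusted p = 0.122). BNP is trimmed by DPP4, and the TH libraries had the most *NPPB* and the least *DPP4*, a gene chosen for its breed difference. The other 6 libraries had 7.75 to 278 FPKM of *NPPB*. Among them *DPP4* was at 16.5 and 20.3 FPKM in TL and at 41.9 to 68.4 FPKM in the Yorkshire libraries. The part of this difference in the *DPP4* levels was not tested.

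Of 18 receptors of these substrates, 14 were found, 6 were tested and none was called. Between the breeds over both altitudes, 1 was higher and 2 were lower in Tibetan pigs at an unadjusted p under 0.05 by limma (13.5% of all genes). The counts were the same without YL2 (16.7%). *CXCR4*, the receptor of CXCL12, was even, with 3.54 to 5.69 FPKM across the 8 libraries. *NPR1*, through which natriuretic peptides act, had 9.34 to 13.6 FPKM in the Tibetan and 6.42 to 8.61 FPKM in the Yorkshire libraries. *GLP1R*, the receptor of the incretin hormone that DPP4 inactivates and a gene outside the naming rule, was at most 0.149 FPKM in every library.

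Of 8 binding partners, 7 were found and 6 tested, and none was called. Between the breeds over both altitudes, 1 was higher and 1 lower in Tibetan pigs at an unadjusted p under 0.05 by limma (13.5% of all genes). The counts were the same without YL2 (16.7%). *PTPRC*, which encodes the leukocyte protein CD45, had 1.29 and 1.41 FPKM in TH and 6.10 and 6.19 FPKM in YH (log2 difference -1.60, SE 0.23, limma adjusted p = 0.0601). In YL it had 1.98 and 2.91 FPKM, below YH. *CAV1*, the main protein of caveolae, had 138 to 196 FPKM in the Tibetan libraries, 139 and 171 FPKM in YH, and 112 and 44.9 FPKM in YL. *FN1*, or fibronectin, had 8.59 to 31.4 FPKM in the Tibetan libraries and 2.62 to 6.19 FPKM in the Yorkshire libraries, the reverse order of *DPP4* by breed.

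*FAP* (ENSSSCG00000015896, chr15:76322711-76394187) lies next to *DPP4*, with its start 170.2 kb further along the chromosome, and the annotated spans do not overlap. Its level was 4.29 and 5.61 FPKM in TH, 6.21 and 6.97 FPKM in TL, 3.57 and 5.24 FPKM in YH, and 2.70 and 1.95 FPKM in YL, on 112 to 430 reads. It was highest in TL and lowest in YL, the group where *DPP4* was highest. The TL mean was 2.83 times the YL mean, a log2 difference of 1.20 (SE 0.25, 95% interval 0.60 to 1.80, unadjusted p = 0.00220, limma adjusted p = 0.253, 0.0376 to 1 over the alternatives). It was 1.04 without YL2. The lowest adjusted p came from limma without YL1, where YL is YL2 alone, the difference was 1.36 and 305 genes were called in TL to YL. At the highland the breeds overlapped (0.15, SE 0.25, limma adjusted p = 0.801), and this sign turned when each library was scaled to the same FPKM sum or when TH2 or YH1 was left out.

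Over both altitudes *FAP* was higher in Tibetan pigs by 0.67 on the log2 scale (SE 0.18, limma adjusted p = 0.185), the lowest adjusted p of any tested member. The exact two-sided permutation test of 4 against 4 libraries gave p = 0.0571. After median-ratio scaling the difference was 0.59 (exact permutation p = 0.0857), and with equal FPKM sums it was 0.13 (exact permutation p = 0.686). On the read signal, a scale chosen after seeing the data, the 4 Tibetan libraries did not overlap with the Yorkshire ones (0.90, exact permutation p = 0.0286, the smallest that this design allows). *FAP* was higher in YH than in YL by 0.69 (SE 0.25, 95% interval 0.10 to 1.29, limma adjusted p = 0.784), or by 0.53 without YL2. It was lower in TH than in TL (-0.36, SE 0.25, limma adjusted p = 0.638). That difference was -0.20 without TH1 and -0.52 without TH2.

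Fibroblast markers (14 genes in 16 rows) were set beside *FAP*. They summed to 372 and 1066 FPKM in TH, 1150 and 965 FPKM in TL, 581 and 699 FPKM in YH, and 483 and 365 FPKM in YL. All 15 tested rows were higher in TL than in YL, 7 of them at an unadjusted p under 0.05, against 5.90% of all genes in that direction. None of the 15 was called. Their median difference was 1.16. In TH1 the sum was the second lowest of the 8 libraries, while *FAP* was higher there than in YH1 and both YL libraries. Markers of other cells were also higher in TL than in YL, with 7 of 10 endothelial genes (median 0.66) and all 10 cardiomyocyte genes (median 0.86, 2 at that p). Without YL2, 9 of the 10 endothelial genes (median 0.41) and 6 of the 10 cardiomyocyte genes (median 0.09) were higher. Of the fibroblast rows, 14 were higher without YL2 and 6 were so at that p, which 9.72% of all genes had in either direction. *COL3A1*, a fibrillar collagen, had 213 and 171 FPKM in TL and 41.0 and 36.8 FPKM in YL, and *DCN*, or decorin, had 266 and 225 FPKM against 152 and 103 FPKM. The part of fibroblasts in the *FAP* levels was not tested.

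Of the other neighbours within 500 kb of *DPP4* or *FAP*, 1 was tested. *IFIH1*, a sensor of viral RNA, had 5.84 FPKM in YL1 and 0.652 to 2.52 FPKM in the other 7 libraries, and its TL to YL difference was -0.38 (SE 0.51, limma adjusted p = 0.866). *GCA* had 0.300 to 1.41 FPKM, *SLC4A10* at most 0.292 FPKM and *TBR1* at most 0.0174 FPKM, so these 3 were under the filter, and their levels are too low to compare with the pattern of *DPP4*.

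*DPP8* (ENSSSCG00000004934, chr1:181020972-181091802) was the steadiest member. Its level was 9.46 and 9.60 FPKM in TH, 9.05 and 8.22 FPKM in TL, 10.7 and 10.6 FPKM in YH, and 9.27 and 9.03 FPKM in YL, on 684 to 1207 reads. All 4 highland libraries lay above all 4 lowland libraries in FPKM, as in 2.69% of the tested genes. The difference was small, 0.17 on the log2 scale (SE 0.13, 95% interval -0.14 to 0.47, limma adjusted p = 0.835). The exact two-sided permutation test gave p = 0.0286, the smallest that 4 against 4 libraries can give and 1 of 9 such tests on these genes. It was 0.457 after median-ratio scaling, and on the read signal the sign turned (-0.14). Between the breeds the difference was -0.11 (SE 0.13, 95% interval -0.42 to 0.19, limma adjusted p = 0.720).

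*DPP9* (ENSSSCG00000026063, on scaffold GL894010.1 from 3685 to 30778) was less abundant per length than *DPP8* in every library. It had 3.98 and 5.38 FPKM in TH, 5.05 and 5.17 FPKM in TL, 5.16 and 5.17 FPKM in YH, and 4.21 and 4.13 FPKM in YL, on 143 to 293 reads. The YL libraries lay below TL and YH, while the TH libraries spread over the whole range. The TL to YL difference was 0.24 (SE 0.20, 95% interval -0.24 to 0.72, limma adjusted p = 0.767), and the YH to YL difference was 0.25 (SE 0.20, limma adjusted p = 0.798). Without YL2 they were 0.23 and 0.24. Over all alternatives the TL to YL difference ran from -0.061 to 0.29, so its sign turned, and the YH to YL difference from 0.18 to 0.38.

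DPP8 and DPP9 hold back the inflammasome sensor NLRP1. Of 8 genes of this route 7 were found and 4 tested, and none was called. *GSDMD*, the pore protein of pyroptosis, had 4.07 to 7.53 FPKM, and *CASP1* had 0.384 to 2.49 FPKM. *NLRP1* itself was at 0.199 to 0.915 FPKM, under the filter. In the 4 comparisons of groups none of the 4 tested genes had an unadjusted p under 0.05, which 5.97% to 16.2% of all genes had. Without YL2, 1 was higher and 1 lower in TL to YL (9.72% of all genes) and 1 was higher in YH to YL (5.45%). From highland to lowland over both breeds all 4 were higher (median 0.24), 1 at that p, against 7.22% of all genes. Without YL2, 3 were higher, 2 at that p (9.37%), and between the breeds 1 was higher and 1 lower at that p (16.7%).

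*DPP7* (ENSSSCG00000027350, on scaffold GL896476.1 from 954 to 2511) had 34.5 and 18.6 FPKM in TH, 13.7 and 14.3 FPKM in TL, 12.7 and 11.96 FPKM in YH, and 15.7 and 37.0 FPKM in YL. These values rest on 247 to 1020 reads over a short annotated span. TH1 and YL2 stood out from the other 6 libraries, which lay between 11.96 and 18.6 FPKM. As reads per 1000000 reads on genes, TH1 and TH2 were close, at 20.8 and 19.8, and YL2 alone stood out, at 47.5. On that scale YL1, at 13.27, lay below both YH libraries, at 13.33 and 15.5. In FPKM, which is per length, *DPP7* in TH1 and TH2 was above *DPP4*, and in the other 6 libraries below it.

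The TH to YH difference of *DPP7* was 0.98 (SE 0.43, 95% interval -0.05 to 2.02, limma adjusted p = 0.327), and the TH to TL difference was 0.81 (SE 0.43, limma adjusted p = 0.525). The TL to YL difference was -0.75 (SE 0.43, limma adjusted p = 0.682) and became -0.15 without YL2. The YH to YL difference was -0.92 (SE 0.43, limma adjusted p = 0.784) and became -0.32 without YL2. Without TH1 the TH to YH difference was 0.56 and the TH to TL difference was 0.39, with TH2 still above all YH and TL libraries. With equal FPKM sums these were 0.04 and 0.19.

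Other exopeptidases of the lysosome (7 genes found) summed to 285 to 304 FPKM in 7 libraries and to 591 FPKM in YL2, the library with the most *DPP7*. *CTSH* had 89.9 FPKM in YL2 and 13.1 to 32.8 FPKM elsewhere, and *TPP1*, which removes tripeptides, had 92.9 against 28.4 to 48.1 FPKM. *CTSZ*, *CTSC* and *CTSA* were also highest in YL2, with 137, 116 and 125 FPKM. In TH1, where *DPP7* was at 34.5 FPKM, the lysosomal sum of 303 FPKM lay within the range of the other libraries. None of the 6 tested genes was called.

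*DPP6* (ENSSSCG00000016423, on chromosome 18) had at most 0.0889 FPKM and 0 to 8 reads per library, with 0 reads in 4 of them. The row matched to *DPP3* by its identifier (ENSSSCG00000030415, chr2:4983354-5022966) had at most 0.0664 FPKM and 0 to 4 reads. The identifier comes from a table of names and not from the deposited file, so this row may not hold the expressed *DPP3* gene. No fold change is given for either, since both rows are near the limit of detection at this depth.

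The potassium channel genes that work with DPP6 were also mostly low. All 9 were found and 2 were tested. *KCNIP2*, the subunit that shapes the transient outward current of heart muscle, had 15.2 and 13.5 FPKM in TH against 163 and 116 FPKM in TL, 119 and 78.4 FPKM in YH, and 134 and 48.6 FPKM in YL. The TH libraries lay below all others, with a log2 difference of -2.67 to YH (SE 0.48, limma adjusted p = 0.0942) and of -3.18 to TL (SE 0.48, limma adjusted p = 0.113). *KCND3* and *KCND1*, which encode the channel pore, were at most 0.462 and 0.259 FPKM.

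DPP3 is known to bind KEAP1 and so to free the transcription factor NRF2. Of 10 genes of this axis all were found and tested, and none was called. *NQO1*, a target of NRF2, had 18.4 and 16.01 FPKM in TL and 7.29 to 9.81 FPKM in the other 6 libraries. Its TL to YL difference was 0.94 (SE 0.21, limma adjusted p = 0.269) and its TH to TL difference was -0.91 (SE 0.21, limma adjusted p = 0.221). *SQSTM1* had 106 to 125 FPKM in the Tibetan and 144 to 165 FPKM in the Yorkshire libraries, and *TXNRD1* stayed between 23.3 and 33.5 FPKM. *NFE2L2*, which encodes NRF2, had 18.5 to 22.0 FPKM in 7 libraries and 40.6 FPKM in YL2.

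**Figure D4:**
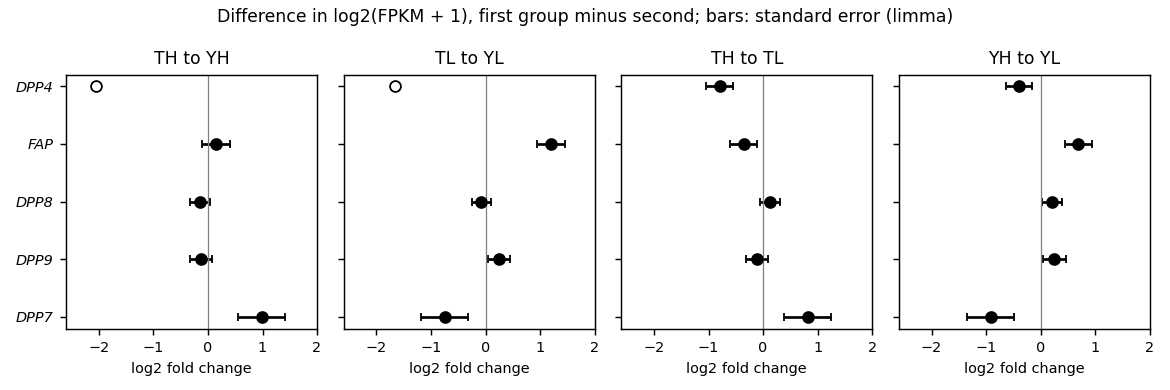
Difference in log2(FPKM + 1) of the 5 tested genes (horizontal axis, first group minus second) in 4 comparisons; filled points carry a limma standard error, and the open points of *DPP4* are breed differences shown without one. The breed differences of *DPP4* are -2.06 and -1.66, *FAP* is at 1.20 in TL to YL, and *DPP7* has the widest error.

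The plot of log2 differences gathers the members. None of the 4 members tested between breeds and none of the 5 tested between altitudes passed the threshold for a call, which was a limma adjusted p below 0.01 together with a log2 difference beyond 1. Such calls were rare over all genes too, at 0.0336% for TH to YH, 0.00839% for TL to YL, 0.0504% for TH to TL and 0% for YH to YL, where 711 genes (5.97%) had an unadjusted p under 0.05. For the means over both altitudes or both breeds the shares were 0.0504% and 0.0336%, and for the interaction 0.0336%. At an unadjusted p under 0.05 stood *FAP* in TL to YL and YH to YL, and *DPP4* in TH to TL, where the shares of all genes were 8.94%, 5.97% and 11.3%. None of the 4 members tested reached it in TH to YH, where 16.2% of genes did. Over both altitudes *FAP* reached it between the breeds (13.5% of genes), over both breeds *DPP4* reached it between the altitudes (7.22%), and *FAP* and *DPP7* reached it in the interaction (10.9%).

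Libraries of a pair of groups often did not overlap, with 52.5% of all genes for TH to YH, 41.5% for TL to YL, 48.5% for TH to TL and 36.3% for YH to YL. All 5 tested members were without overlap between YH and YL. *FAP* and *DPP9* were higher in YH by 0.69 and 0.25, *DPP8* by 0.20, and *DPP4* and *DPP7* were lower by 0.40 and 0.92. This separation of 2 against 2 libraries is thus common among all genes and marks no member.

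Other peptidases that cut at proline were listed as relatives by function. All 9 were found, in 11 rows of which 9 were tested, and none was called. *PEPD*, or prolidase, had 2 rows, the first with 159 FPKM in YL2 and 14.2 to 22.0 FPKM elsewhere. *PREP*, the prolyl oligopeptidase, had 11.6 to 24.1 FPKM in its first row, *XPNPEP1* had 15.5 to 22.7 FPKM and *PRCP* had 7.23 to 25.4 FPKM. In TH to YH the median difference over the 9 rows was -0.40, with 1 lower and none higher at an unadjusted p under 0.05, against 16.2% of all genes in either direction. Without YL2, 4 were lower, against 22.7% of all genes. The median Tibetan to Yorkshire difference over both altitudes was -0.13 for these rows and -0.01 for all genes.

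The genes whose levels ran most like *DPP4* over the 8 libraries were found among 6220 genes with a range of at least 1 log2 unit. Of these, 30 had a Pearson r over 0.9 and 70 had one under -0.9. The libraries share their pools and groups, so r is a description. *SLA-5*, a gene of the pig class I histocompatibility family, came first (r = 0.979, 0.990 without YL2), with 60.9 to 133 FPKM in the Tibetan and 255 to 351 FPKM in the Yorkshire libraries. *IGLC*, an immunoglobulin light chain gene, had r = 0.965, with 25.9 to 49.2 FPKM against 105 to 203 FPKM. Both belong to families of near-identical copies, among which reads may have been split. *TMEM140* (r = 0.952) and *KIT* (r = 0.944), the stem cell factor receptor, followed, with *KIT* at 0.991 to 1.92 FPKM in Tibetan and 2.93 to 6.24 FPKM in Yorkshire libraries. ENSSSCG00000010950 (r = 0.964) and ENSSSCG00000027668 (r = 0.953) have no symbol here.

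**Figure D5:**
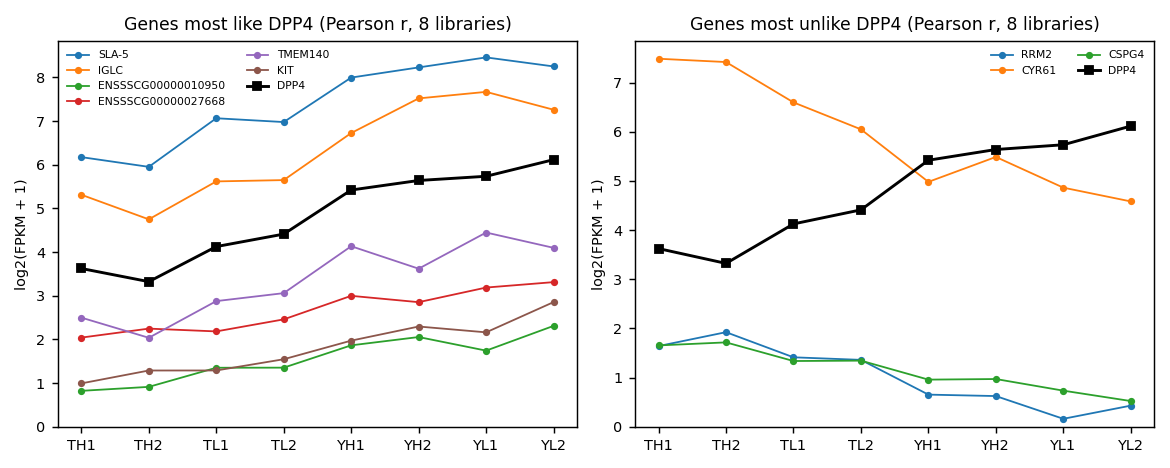
log2(FPKM + 1) in each library (vertical axis, from 0; libraries on the horizontal axis, joined by lines as a guide) for *DPP4* and the 6 genes most like it (left) and the 3 most unlike it (right). *SLA-5* climbs beside *DPP4* at r = 0.979, and *CYR61* goes from 178 FPKM in TH1 to 23.0 FPKM in YL2.

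The plot of like and unlike genes shows the mirror image as well. *CSPG4*, a proteoglycan of pericytes, had r = -0.981, with 1.53 to 2.29 FPKM in Tibetan and 0.437 to 0.960 FPKM in Yorkshire libraries. *CYR61*, a matricellular gene, had r = -0.973, and *RRM2*, a subunit of ribonucleotide reductase, had r = -0.972. Among the members, *FAP* had r = -0.69 with *DPP4* over the 8 libraries, *DPP8* 0.24, *DPP9* -0.25 and *DPP7* -0.08. Without YL2 these became -0.54, 0.42, -0.02 and -0.63, in the same order. The Spearman correlation of *DPP8* over the 8 libraries had the other sign, -0.17. *DPP8* and *DPP9* spanned only 0.35 and 0.36 log2 units, so they were not among the 6220 genes compared. The breed step that chose *DPP4* shapes the ranking, so nothing is read from how the members stand to its top genes.

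As altitude is the other factor of the design, targets of the hypoxia factor HIF-1 were set beside *DPP4*. All 16 genes were found, in 18 rows of which 17 were tested, and none was called. Their median highland to lowland difference was -0.11, with 2 higher and 1 lower at an unadjusted p under 0.05, against 7.22% of all genes. Without YL2 the median was -0.02, with 1 higher and 2 lower, against 9.37%. *PGK1*, a glycolytic enzyme, had 169 to 265 FPKM in its first row, *VEGFA* had 53.3 to 86.5 FPKM and *BNIP3* had 43.3 to 111 FPKM. *EGLN3* had 29.2 to 43.9 FPKM in the Tibetan libraries and 34.5 to 81.2 FPKM in the Yorkshire libraries, and *LDHA* had 27.2 to 58.2 FPKM.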

How the data were processed

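RNA of 8 heart libraries, 2 per group, was analysed. Per the labels and the methods of the study, the authors aligned reads to Sscrofa10.2 with TopHat2 2.0.9 and Bowtie 0.12.5, deposited FPKM from Cufflinks, and used DESeq 1.10.1 for their own calls. The deposited table also holds a read signal, which the authors scaled by 1 factor per library. Divided by the step of each library, 99.8% of 36692 low values of the signal came out whole (within 0.05), and reads are given in this way. The signal was not used as counts. The 8 columns of group means and ratios by the authors were not used. YL1 and YL2 carry a description that points to a TL file and were taken as YL by title.

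A model with 1 term per group was fitted to log2(FPKM + 1) with limma 3.58.1 (R 4.3.3, trend) for the 11913 genes that reached 1 FPKM in 2 or more libraries, and p-values were adjusted over them with the Benjamini-Hochberg method. On this scale the change of a low gene is understated. For a call, the adjusted p had to be below 0.01 and the log2 difference beyond 1. Single genes were also tested with exact two-sided permutations. These moved the labels of breed or altitude freely over the libraries and did not hold the other factor fixed. The fit was tested on simulated data. Of the symbols, 14256 came with the table and 1025 from a list of Ensembl names. The genes named are the members, at most 5 per list by mean FPKM, neighbours within 500 kb, and the 6 genes most like and 3 most unlike *DPP4*. An exception is marked as such, and 1 gene of the list of receptors is not reported here. The members, the 16 gene lists and the tests were chosen with earlier results of these data known. Alternatives were another pseudocount (0.1), no filter, 2 scalings, a replicate block, fits to the compared groups alone, a threshold of 0.05, each library left out and, chosen after seeing the data, the read signal. Python 3.11.15 with pandas 2.3.3, scipy 1.17.1 and matplotlib 3.10.9 was used for tables and figures.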

Additional observations from a re-analysis of the deposited data

Results flagged for a closer look

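The altitude difference of *FAP* had opposite directions in the breeds in every library. Both TH libraries were below both TL libraries and both YH libraries were above both YL libraries, and the difference between these differences was -1.05 on the log2(FPKM + 1) scale (SE 0.36, limma adjusted p = 0.384, 0.106 to 1 over the alternatives, the lowest without YL1). It was -0.89 without YL2. The test of the difference itself was therefore not passed. Among all tested genes, 48.5% had no overlap between TH and TL and 36.3% had none between YH and YL. The share of genes with both in opposite directions was not counted. The pattern therefore marks neither *FAP* nor *DPP7* among all genes. The sum of the fibroblast markers was also higher in YH than in YL, in every library, while TH1 and TH2 lay on both sides of TL2, and its part in the result was not tested.

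The altitude difference of *DPP7* likewise went in opposite directions, with both TH libraries above both TL libraries and both YH libraries below both YL libraries in FPKM. As reads per 1000000 reads on genes, YL1 (13.27) lay below both YH libraries (13.33 and 15.5) and YL2 (47.5) alone above them. The difference between these differences was 1.73 (SE 0.61, limma adjusted p = 0.395, 0.0422 to 1 over the alternatives), and it was 1.14 without YL2. The lowest adjusted p came from limma without YL1, where YL is YL2 alone, the value was 2.32 and 152 genes were called in the interaction. In YL2 *DPP7* was at 37.0 FPKM and the kidney markers summed to 6863 FPKM, and in YL1 these values were 15.7 and 0.896 FPKM. The part of kidney RNA in the result was not tested.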

How the results depend on the processing

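Among the members tested in each comparison, *DPP4* being left out between the breeds and in the interaction, none was called at a limma adjusted p under 0.01 under any alternative run. A threshold of 0.05 was tried with all libraries and called none. Without YL1, *FAP* in TL to YL (1.36, limma adjusted p = 0.0376) and *DPP7* in the interaction (2.32, limma adjusted p = 0.0422) were below 0.05. The count of 1 member past the exact permutation test (*DPP8*, highland to lowland) was 0 after median-ratio scaling, 0 with equal FPKM sums and 0 with each library left out, where 3 against 4 libraries allow no p below 0.0571. It stayed at 1 with a pseudocount of 0.1. On the read signal it was 1 as well, but there *FAP* by breed passed and *DPP8* did not. The *FAP* difference from TH to YH reversed to -0.40 with equal FPKM sums, -0.02 without TH2 and -0.077 without YH1 (up to 0.37 with other libraries left out), and the highland to lowland difference of *DPP8* reversed to -0.062 with equal FPKM sums and -0.14 on the read signal. The cause was not tested.

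With equal FPKM sums the median difference of all genes was -0.50 for TH to YH, -0.23 for TL to YL and -0.39 for the breeds, against -0.03, 0.02 and -0.01 as deposited. The *DPP4* differences became -2.63, -1.88 and -2.26, which relative to these medians stay below -1.6. Over the other alternatives they ranged from -2.21 to -1.91, from -1.85 to -1.47 and from -1.96 to -1.76. With a group left with 1 library, that library is assumed to vary like the others. The replicate numbers are not stated to pair libraries. Correlations between same-numbered libraries were -0.08 to 0.12, and with a replicate block 0 members were called, as without it. Count tests planned for the reads were not run, because the deposited signal could not be established as whole reads in every library.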
